A study of Mus musculus with 12 samples.

Results

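The insulin-like growth factor (IGF) genes Igfbp2, Igfbp3, Igfbp4, Igfbp5, Igfbp6, Igfbp7, Igf1 and Igf1r were followed in mouse mammary organoids treated with CHIR99021. They were taken by gene symbol from the table of raw read counts, and each of the 8 symbols matched 1 of its 25210 genes. Organoids were 3-dimensional cultures of mammary epithelium from virgin FVB/N females aged 8 to 11 weeks, kept for 7 days in Matrigel, a basement membrane extract. All groups shared this strain, sex and culture. The control group received the vehicle, dimethyl sulfoxide (DMSO), and the other groups received 1, 1.5 or 3 µM CHIR99021, a GSK3 inhibitor that activates WNT/CTNNB1 signalling. Each of the 3 cultures came from 1 animal and received all 4 treatments, which gave 12 libraries with 3 per group. The sample titles also tag cultures 1, 2 and 3 as med, min and max, and the labels do not say what these tags mean, so what they mark cannot be told apart from the animal. The comparisons asked how transcript levels change as the pathway is driven to higher activity.

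IGF1 is a secreted growth factor that signals through the receptor tyrosine kinase IGF1R to the PI3K-AKT and MAPK pathways. Most IGF1 and IGF2 outside cells is held by IGF binding proteins (IGFBPs), which compete with the receptor, carry the ligands and release them when proteases cut the binding protein. In the mammary gland, IGF1 supports growth of the ducts, and IGFBP5 is known for its rise in the involuting gland after weaning. IGFBP2 to IGFBP6 bind IGFs with high affinity, whereas IGFBP7 binds them weakly and is found mainly with the extracellular matrix and blood vessels.

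Igfbp2 (chr1:72824503-72852474, plus strand) and Igfbp5 (chr1:72857932-72874884, minus strand) lie tail to tail on chromosome 1, with 5457 bases between them. Coordinates are those of the deposited table, on GRCm38. The other genes lie apart: Igfbp3 at chr11:7206086-7213923, Igfbp4 at chr11:99041244-99054392, Igfbp6 at chr15:102144362-102149511, Igfbp7 at chr5:77349240-77408045, Igf1 at chr10:87858265-87937042 and Igf1r at chr7:67952859-68226780. The promoters of Igfbp5 and Igfbp2 are shown because these neighbours had fold changes of opposite sign at 3 µM, and that of Igfbp4 because it had the largest fitted decrease of the 8 genes. The sequences are from RefSeq (GRCm38.p6), run 5′ to 3′ on the gene's strand and end at or before the first annotated exon. They cover chr1:72874885-72875115 (Igfbp5, minus strand), chr1:72824230-72824479 (Igfbp2, plus strand) and chr11:99040994-99041243 (Igfbp4, plus strand). Capitals mark matches to the words searched.
Igfbp5: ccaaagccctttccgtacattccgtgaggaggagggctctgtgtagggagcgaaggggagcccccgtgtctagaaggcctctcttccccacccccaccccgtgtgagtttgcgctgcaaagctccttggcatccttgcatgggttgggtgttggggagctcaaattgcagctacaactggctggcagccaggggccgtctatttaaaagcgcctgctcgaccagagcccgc
Igfbp2: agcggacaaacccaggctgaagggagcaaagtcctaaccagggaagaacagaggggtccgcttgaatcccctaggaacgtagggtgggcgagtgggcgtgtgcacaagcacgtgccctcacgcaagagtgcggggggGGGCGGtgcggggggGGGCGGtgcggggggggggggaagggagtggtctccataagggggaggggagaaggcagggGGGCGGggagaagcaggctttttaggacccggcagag
Igfbp4: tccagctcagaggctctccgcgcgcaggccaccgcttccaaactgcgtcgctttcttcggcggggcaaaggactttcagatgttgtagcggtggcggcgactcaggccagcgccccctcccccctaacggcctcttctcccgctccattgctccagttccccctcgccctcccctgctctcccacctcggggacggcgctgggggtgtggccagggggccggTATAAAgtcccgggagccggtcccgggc

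Both strands were searched for words of the TCF/LEF factors, which act with β-catenin at WNT target genes. The first of these words was CTTTGAA. The second TCF/LEF word searched was CTTTGAT. The third word for these factors was CTTTGTA. The fourth and last of them was CTTTGTT. The TATA word searched for core promoters was TATAAA. The GC box word, to which SP1 binds, was GGGCGG. No match overlapped another in these windows. All 8 genes matched RefSeq promoter records, with 9 windows of 250 bases in all, because Igfbp2 has 2 records. The Igfbp2 window held 3 GC box words, which start 113, 98 and 37 bases before the RefSeq transcription start. The Igfbp4 window held 1 TATA word, which starts 28 bases before the start. The Igfbp5 window held none of these words. Among the windows not printed, Igfbp7 held 4 GC box words, Igf1r held 2, and Igfbp6 held a TATA word on the opposite strand. The Igf1 window held 2 TCF/LEF words, 186 and 116 bases before its RefSeq start, but all of that window lies within GENCODE exons. Of 32851 RefSeq windows of the same length, 14.8% held a TCF/LEF word, 12.4% a TATA word and 32.7% a GC box word. GC content ran from 49.6 to 77.6% over the 9 windows, against a median of 52.4% over all windows.

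Library totals ran from 10.1 M counts (M, mega) in DMSO replicate 2 to 24.5 M in 1.5 µM replicate 2, and all 8 genes passed the filter on low counts, which kept 15316 genes. The epithelial markers Epcam, Cdh1, Krt8 and Krt18 were present in every library, with a summed level of 1869 to 2973 CPM (counts per M counts of a library size corrected by TMM, which trims extreme log ratios between libraries) in DMSO. Markers of cell types other than epithelium were present too. The 9 fibroblast markers summed to 1643 CPM in culture 1, 7402 CPM in culture 2 and 20587 CPM in culture 3 of the DMSO group, and the cultures kept this order at every dose. The sums ran from 1693 to 19577 CPM at 1 µM and from 575 to 11701 CPM at 1.5 µM. At 3 µM the same sums were 189, 997 and 4626 CPM, which is 8.67-fold, 7.43-fold and 4.45-fold lower. Most of the sum was collagen: Col1a1, Col1a2 and Col3a1 averaged 2251, 2423 and 4257 CPM of 9877 CPM in DMSO. At 3 µM these collagens averaged 410, 491 and 411 CPM. The means of Pdgfra, Pdgfrb, Lum and Dpt were lower at 3 µM too. Fbln1 changed little, from 31.7 to 27.6 CPM, and Dcn was higher, at 294 CPM in DMSO and 400 CPM at 3 µM. The sum over 5 endothelial markers was 5.15-fold to 9.38-fold lower, and over 5 immune markers it was 6.49-fold to 21.3-fold lower. The 4 adipocyte markers summed to between 1018 and 2511 CPM in DMSO and between 1.86 and 44.6 CPM at 3 µM, which is 62.9-fold, 56.3-fold and 547-fold lower in cultures 1, 2 and 3. Of the immune markers, Adgre1 was not analysed here and Cd3e had 0 counts in all 3 libraries at 1.5 µM. In these bulk libraries, fewer cells of a type and less RNA per cell cannot be told apart.

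In DMSO the 8 genes together took up 1.89 ± 0.330% of all counts (SD, n = 3), with 2.01, 1.52 and 2.15% in cultures 1, 2 and 3. At 1 µM they held 1.67, 1.62 and 1.82%, and at 1.5 µM 1.02, 1.07 and 1.21%. At 3 µM they held 0.198, 0.147 and 0.281%, a mean of 0.209 ± 0.0674%, below every library at the lower doses. Most of this was Igfbp5, whose own share of all counts was 1.79 ± 0.330% in DMSO and 0.168 ± 0.0706% at 3 µM. It made up 94.4 ± 1.53% of the 8 genes' counts in DMSO and 78.8 ± 7.87% at 3 µM, where Igfbp3 made up 13.2 ± 5.44%. The other 7 genes each held less: in DMSO the mean shares were 0.0351% for Igfbp3, 0.0329% for Igfbp4, 0.0188% for Igfbp7, 0.0104% for Igf1, 0.00349% for Igf1r, 0.00161% for Igfbp6 and 0.000710% for Igfbp2. At 3 µM they were 0.0252% for Igfbp3, 0.00228% for Igfbp4, 0.00579% for Igfbp7, 0.00141% for Igf1, 0.00329% for Igf1r, 0.000422% for Igfbp6 and 0.00250% for Igfbp2.

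Counts grow with transcript length, so levels of different genes were ordered by CPM per kilobase (kb) of merged exons. In DMSO the order was Igfbp5 at 2948 ± 472, Igfbp7 at 155 ± 36.7, Igfbp3 at 111 ± 8.27, Igfbp4 at 74.1 ± 27.8, Igfbp6 at 14.4 ± 8.53, Igf1 at 10.5 ± 5.87, Igfbp2 at 3.78 ± 1.93 and Igf1r at 2.06 ± 0.126 CPM per kb. The ranges of Igfbp7 and Igfbp3 overlapped, as did those of each pair of neighbours from Igfbp6 down to Igf1r. Igfbp5 was above Igfbp7, Igfbp3 above Igfbp4 and Igfbp4 above Igfbp6 without overlap. At 3 µM Igfbp5 still led at 315 ± 119 CPM per kb, followed by Igfbp3 at 91.9 ± 17.7 and Igfbp7 at 54.5 ± 13.6. Igfbp2 came next at 15.6 ± 8.73 CPM per kb, above Igfbp4 at 5.82 ± 2.38 and Igfbp6 at 4.28 ± 1.83, and the ranges of these neighbours overlapped. Igf1r at 2.22 ± 0.364 and Igf1 at 1.63 ± 1.25 CPM per kb closed the order, with overlapping ranges. The make-up of the 8 genes' counts per kb moved mainly at 3 µM. At 1 and 1.5 µM Igfbp5 made up 89.7 ± 3.12% and 90.8 ± 2.63%, and Igfbp3 2.87 ± 1.00% and 3.32 ± 1.42%. Igfbp5 made up 88.6 ± 3.12% in DMSO and 62.7 ± 11.5% at 3 µM, while Igfbp3 went from 3.42 ± 0.726 to 19.6 ± 6.76%, Igfbp7 from 4.82 ± 1.76 to 11.5 ± 4.27% and Igfbp2 from 0.110 ± 0.0456 to 3.41 ± 2.08%.

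**Figure D1:**
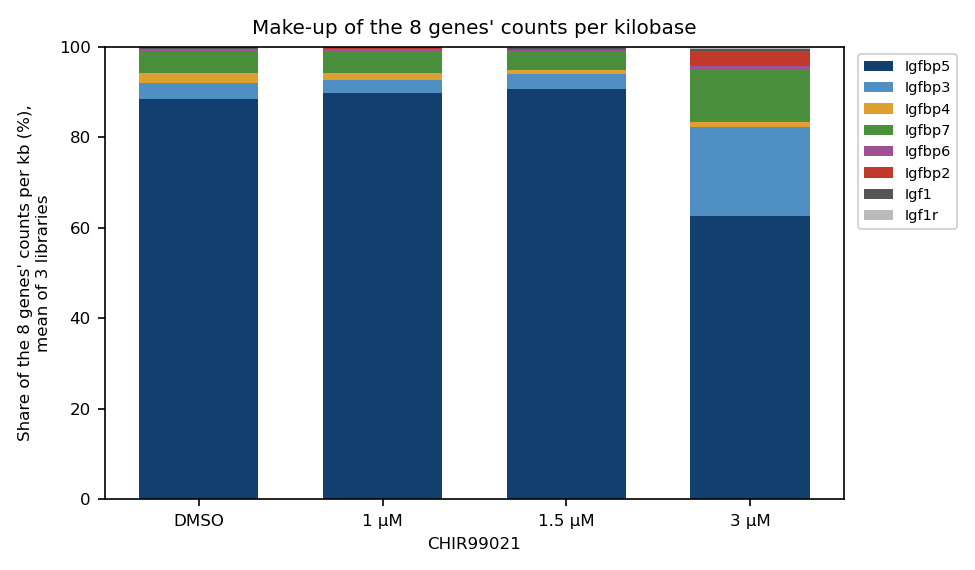
Stacked bars show, for DMSO and each CHIR99021 dose, the mean share (%, 3 libraries) that each gene has of the 8 genes' counts per kilobase of merged exons. Igfbp5 fills 88.6% of the DMSO bar and 62.7% of the 3 µM bar, where Igfbp3 takes 19.6% and Igfbp7 11.5%; Igf1 and Igf1r are too thin to see.

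Each gene was compared between groups with edgeR's quasi-likelihood test, and a change was called where the p-value, adjusted by Benjamini and Hochberg over the 15316 genes, was under 0.05. At 3 µM against DMSO, 4 of the 8 genes fell and 0 rose, where 57.5% of all tested genes were called, 27.7% lower and 29.9% higher. The genes that fell were the binding proteins Igfbp4, Igfbp5 and Igfbp7 and the ligand Igf1. The median log2 fold change of the 8 genes was −1.63, against −0.03 over all genes tested. In 7 of the 8 genes the DMSO and 3 µM libraries did not overlap, Igf1r being the exception, and the same held for 60.8% of all genes tested. Margins were narrow for genes not called: the highest 3 µM and lowest DMSO library had 323.6 and 327.4 CPM for Igfbp3 and 7.03 and 7.10 CPM for Igfbp6. For Igfbp2 the lowest 3 µM library had 11.4 CPM and the highest DMSO library 9.96 CPM. A model that adds the culture as a block, since each culture received every treatment, called 6 of the 8, with Igfbp6 lower and Igfbp2 higher in addition, where it called 68.9% of all genes. DESeq2 without the block called the same 6 genes, where it called 60% of all genes.

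**Figure D2:**
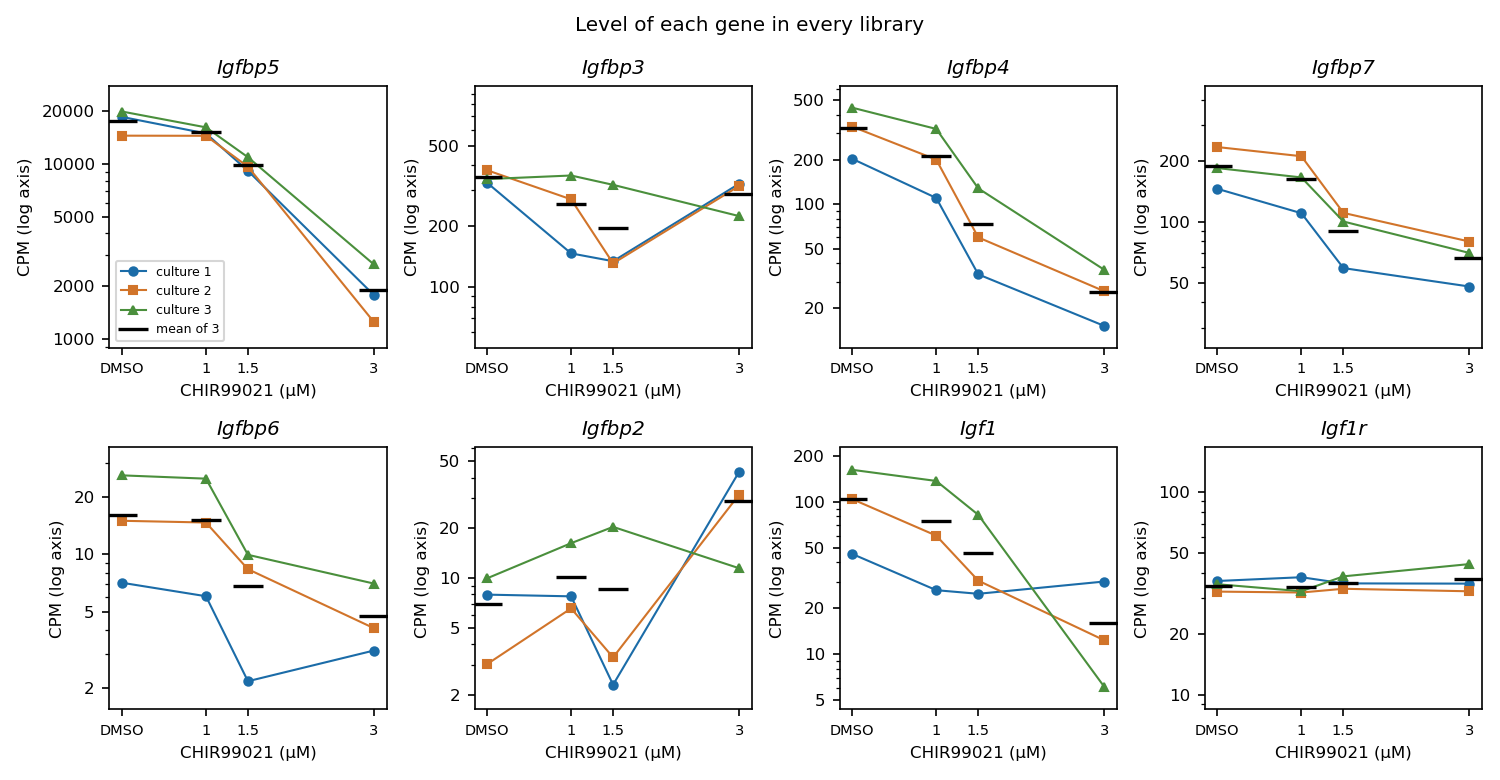
Each panel plots the CPM (log axis) of 1 gene in the 12 libraries against CHIR99021 dose (µM), with lines joining the libraries of 1 culture and black bars for the mean of 3. Igfbp5 lies between 14529 and 19977 CPM in DMSO and between 1244 and 2659 CPM at 3 µM, while Igf1r stays between 31.9 and 44.1 CPM throughout.

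Igfbp5, which encodes a binding protein that also attaches to extracellular matrix, had 18605, 14529 and 19977 CPM in cultures 1, 2 and 3 of the DMSO group. At 1 µM it had 14961.5, 14503 and 16209.8 CPM, and at 1.5 µM 9136, 9647 and 10932 CPM. At 3 µM it had 1776, 1244 and 2659 CPM. Libraries at 1 µM overlapped those in DMSO, every library at 1.5 µM was below both, and those at 3 µM were far below the rest. By counts Igfbp5 was the first or second gene of the whole table in DMSO and at 1 µM (ranks 1 to 2), ranked 1 to 3 at 1.5 µM and 19 to 89 at 3 µM. The fitted level was 9.35-fold lower at 3 µM than in DMSO (log2 fold change −3.23 ± 0.26 SE, edgeR adjusted p = 8.18e-06). Within cultures 1, 2 and 3 it was 10.5-fold, 11.7-fold and 7.51-fold lower. Counting error was small at this depth: in the library with the fewest Igfbp5 counts, 3 µM replicate 2, the share was 0.105% of 18482211 counts with a 95% Wilson interval from 0.103 to 0.106%. That interval covers counting error only.

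Igfbp4 encodes a binding protein that mainly restrains IGF action and is cut by the protease PAPP-A. It had 202, 333 and 447 CPM in cultures 1, 2 and 3 in DMSO, and 110, 199.7 and 321 CPM at 1 µM. It had 33.7, 59.7 and 128 CPM at 1.5 µM and 15.1, 25.9 and 36.1 CPM at 3 µM. Culture 1 was lowest and culture 3 highest at every dose, and in every culture the level was lower at each higher dose. The fitted level at 3 µM was 12.7-fold lower than in DMSO (log2 fold change −3.67 ± 0.60 SE, edgeR adjusted p = 0.000561). The within-culture values lay close together, at 13.4-fold, 12.9-fold and 12.4-fold lower.

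Igfbp7 encodes a secreted matrix protein with low affinity for IGFs. Its DMSO libraries had 145, 234 and 184 CPM, and those at 1 µM had 110, 211 and 166 CPM. At 1.5 µM the values were 59.0, 111 and 100.3 CPM, and at 3 µM 47.9, 79.8 and 70.1 CPM. Culture 2 was highest and culture 1 lowest at every dose. The summed fibroblast markers had another order, with culture 3 highest. The summed endothelial markers had the order of Igfbp7 in DMSO (254, 545 and 447 CPM) but not at 1, 1.5 or 3 µM. Whether either cell type bears on the level of Igfbp7 was not tested. The fitted level at 3 µM was 2.85-fold lower than in DMSO (log2 fold change −1.51 ± 0.31 SE, edgeR adjusted p = 0.00233), and the within-culture values were 3.04-fold, 2.93-fold and 2.63-fold lower. On the opposite strand the span of Igfbp7 overlaps those of Polr2b and Gm34648, and overlap of exons was not examined. Whether reads were counted by strand is not given in the sources used here, so any effect of this overlap on its counts is not known. Igf1 overlaps the antisense gene Igf1os in the same way.

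Igf1, the ligand, had 45.5, 104 and 162 CPM in cultures 1, 2 and 3 of the DMSO group. It had 26.3, 59.9 and 137 CPM at 1 µM and 24.9, 30.4 and 82.0 CPM at 1.5 µM. At 3 µM the order of the cultures was reversed, with 30.01, 12.4 and 6.14 CPM. All 3 µM libraries were below all DMSO libraries, and the fitted level was 6.43-fold lower (log2 fold change −2.68 ± 0.80 SE, edgeR adjusted p = 0.0159). The within-culture ratios differed widely: Igf1 was 1.52-fold lower in culture 1, 8.40-fold in culture 2 and 26.4-fold in culture 3. An edgeR test for unequal linear dose slopes between cultures was added after the values were seen. For Igf1 it gave log2 slopes per µM of −0.18, −1.05 and −1.63 in cultures 1, 2 and 3. The unadjusted p was 0.0109 and the adjusted p 0.477. This test called 0 of the 15316 genes, of which 1230, Igf1 among them, had an unadjusted p under 0.05. The call at 3 µM was lost without 3 µM replicate 2 (edgeR adjusted p = 0.0582), without DMSO replicate 3 (0.0507) and without all of culture 2 (0.171).

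Igfbp6, whose protein binds IGF2 more tightly than IGF1, had 7.10, 15.02 and 26.0 CPM in cultures 1, 2 and 3 of the DMSO group and 6.04, 14.7 and 25.0 CPM at 1 µM. It had 2.16, 8.37 and 9.96 CPM at 1.5 µM and 3.13, 4.10 and 7.03 CPM at 3 µM. Culture 1 was lowest and culture 3 highest at every dose, as for Igfbp4 and the summed fibroblast markers. The 3 µM libraries were all below the DMSO libraries, narrowly in the case of 3 µM replicate 3 and DMSO replicate 1. The log2 fold change of −1.75 ± 0.69 SE did not pass (edgeR adjusted p = 0.0510), whereas the model with the culture as a block gave an adjusted p of 0.000237. Without the block, DESeq2 called Igfbp6 too (adjusted p = 0.0134), as did edgeR on the 2 groups alone (0.0335). So did edgeR scaled by library size alone (0.0349) or by DESeq2's size factors (0.0469). With no filter Igfbp6 was not called, and it was called in 5 of 12 fits that each left out 1 library. Within cultures the level was 2.27-fold, 3.66-fold and 3.70-fold lower.

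Igfbp2, which encodes a binding protein with an integrin-binding motif, was the gene with a higher fitted level at 3 µM among the binding proteins. Its DMSO libraries had 7.95, 3.04 and 9.96 CPM, those at 1 µM 7.76, 6.57 and 16.2 CPM, and those at 1.5 µM 2.29, 3.34 and 20.3 CPM. At 3 µM it had 43.3, 31.6 and 11.4 CPM. Cultures 1 and 2 had their highest level at 3 µM, at 5.45 and 10.4 times their DMSO level, whereas culture 3 was at 1.15 times its DMSO level and had its highest value at 1.5 µM. The log2 fold change of 2.03 ± 0.84 SE did not pass (edgeR adjusted p = 0.0605), and it passed with the culture as a block (adjusted p = 0.0232) and without culture 3 (0.00270). DESeq2 (adjusted p = 0.0172) and edgeR on the 2 groups alone (0.0348) called Igfbp2 too. It was not called with other scalings or no filter, and it was called in 3 of 12 fits that each left out 1 library. The dose slopes of the cultures were not shown to differ for Igfbp2 (edgeR adjusted p = 0.824).

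Igfbp3 encodes the main IGF carrier of blood plasma. Its levels were 327, 378 and 341 CPM in DMSO, 147, 271 and 356 CPM at 1 µM, 134, 131 and 320 CPM at 1.5 µM, and 324, 316 and 224 CPM at 3 µM. In cultures 1 and 2 the lowest level was at 1.5 µM and the level at 3 µM was near that in DMSO, while in culture 3 the lowest level was at 3 µM. No comparison of Igfbp3 passed: the log2 fold change was −0.84 ± 0.38 SE at 1.5 µM (edgeR adjusted p = 0.129) and −0.28 ± 0.38 SE at 3 µM (adjusted p = 0.551). Without 1.5 µM replicate 3 the difference at 1.5 µM passed, with an edgeR adjusted p of 0.0158.

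Igf1r, the receptor, had the narrowest spread of the 8 genes. It had 36.4, 32.3 and 35.1 CPM in DMSO, 38.0, 31.9 and 32.4 CPM at 1 µM, 35.4, 33.3 and 38.4 CPM at 1.5 µM, and 35.3, 32.4 and 44.1 CPM at 3 µM. The groups overlapped at every dose. The log2 fold change at 3 µM was 0.11 ± 0.13 SE (edgeR adjusted p = 0.486), with a 95% interval from −0.17 to 0.39, and it was −0.09 when counts were scaled by library size alone. The libraries at 3 µM had TMM factors of 0.844 to 0.919, below those of all other groups.

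**Figure D3:**
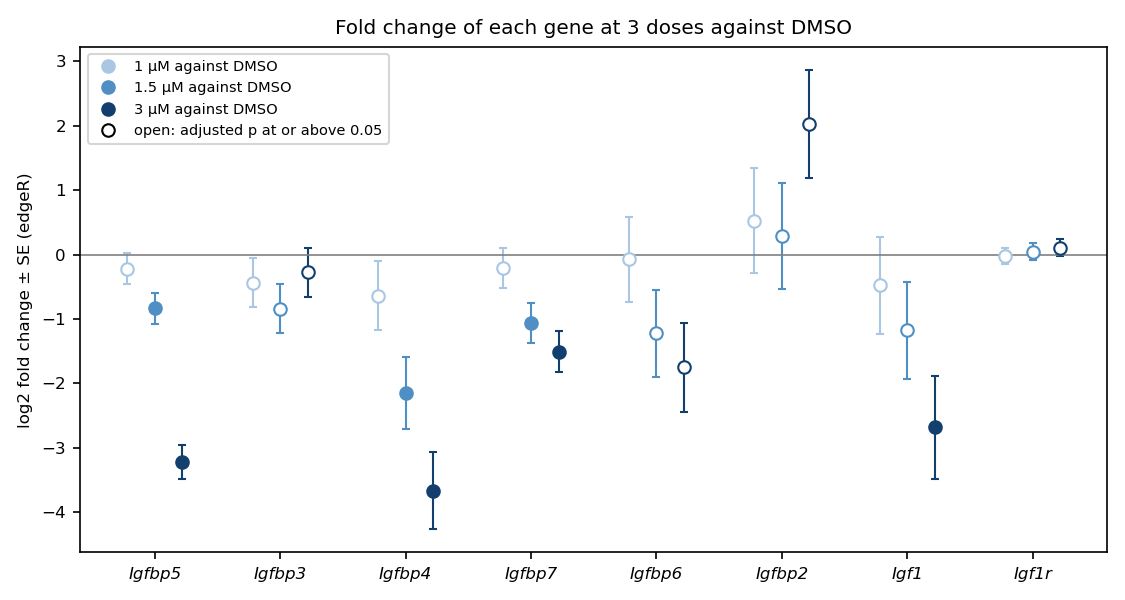
Points show the log2 fold change of each gene at 1, 1.5 and 3 µM CHIR99021 against DMSO, with bars for the standard error (edgeR, 3 libraries per group) and filled points for adjusted p under 0.05. Igfbp5, Igfbp4 and Igfbp7 are filled at 1.5 and 3 µM and Igf1 at 3 µM, while Igfbp2 lies at 2.03 with an open point.

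At the lower doses fewer of the 8 genes were called. At 1 µM, 0 of the 8 genes passed edgeR's test, where 0.242% of all genes were called. Of the 8 genes 0 had an unadjusted p under 0.05, and the share of all genes at that cut is not given here. DESeq2 called 0, and 3.08% of all genes. With the culture as a block, Igfbp4 alone fell (adjusted p = 0.0257), and this model called 5.61% of all genes. At 1.5 µM, 3 genes fell, where 27.3% of all genes were called and 11.8% were called lower. These were Igfbp4 (log2 fold change −2.15 ± 0.56 SE, edgeR adjusted p = 0.0184), Igfbp5 (−0.84 ± 0.24 SE, 0.0285) and Igfbp7 (−1.06 ± 0.31 SE, 0.0293). In this model without the block, the calls were sensitive to single libraries. Of the 8 genes, 0 were called without 1.5 µM replicate 1 or without DMSO replicate 3, and 1 without 1.5 µM replicate 2. With all of culture 2 left out, 0 were called. The block added Igfbp6 (adjusted p = 0.00227) and kept the 3 calls, where it called 46.7% of all genes. Its edgeR adjusted p was 2.05e-05 for Igfbp4, 0.00558 for Igfbp5 and 4.10e-05 for Igfbp7. The fits that left out libraries or cultures did not use the block, and their shares of all genes called are not given here.

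Between neighbouring doses, 1 gene was called, Igfbp5 in the step from 1.5 to 3 µM. From 1 to 1.5 µM, 0 of the 8 genes passed edgeR's test, where 5.43% of all genes were called. An unadjusted p under 0.05 was found for 3 of the 8 genes, and the share of all genes at that cut is not given here. DESeq2 called 2, namely Igfbp4 and Igfbp7, and 10.7% of all genes. The model with the culture as a block called 4, namely Igfbp4, Igfbp5, Igfbp6 and Igfbp7, all lower, where it called 21.9% of all genes. In the step from 1.5 to 3 µM, 29.7% of all genes were called. The log2 fold change of Igfbp5 in this step was −2.39 ± 0.26 SE (edgeR adjusted p = 0.000282), against −0.62 ± 0.24 SE from 1 to 1.5 µM (adjusted p = 0.171). Without the block, Igfbp4 had similar log2 fold changes in both steps, −1.51 ± 0.55 SE from 1 to 1.5 µM and −1.52 ± 0.56 SE from 1.5 to 3 µM. Neither passed in that model (edgeR adjusted p = 0.146 and 0.0642). With the block they were −1.58 ± 0.14 SE and −1.41 ± 0.14 SE (edgeR adjusted p = 0.000537 and 0.000155). In every culture Igfbp4 was lower after each of these steps. With the block, 4 genes were called from 1.5 to 3 µM, where it called 46.7% of all genes: Igfbp4, Igfbp5 and Igfbp7 were lower and Igfbp2 was higher.

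Cultures differed in the level of some of these genes at all doses. In a test of culture in the model with group and culture, added after the values were seen, 28.8% of the 15316 genes were called. Igfbp4 (edgeR adjusted p = 0.000304), Igfbp7 (0.000352) and Igfbp6 (0.00118) were among them, and the other 5 genes were not, with adjusted p from 0.104 for Igfbp5 to 0.366 for Igfbp3. Culture 3, which had the highest sum of fibroblast markers, also had the highest Igfbp4 and Igfbp6 in every group and the highest Igf1 in DMSO and at 1 and 1.5 µM. The part of fibroblast, endothelial, immune, adipocyte and pericyte cells in the differences between groups was not tested. Of the 9 fibroblast markers 1 was called lower at 3 µM (median log2 fold change −1.58), as were 5 of 5 endothelial markers (median −2.87) and 3 of 4 tested immune markers (median −3.88). Among all tested genes 27.7% were called lower and 29.9% higher. Of the 4 epithelial markers 2 were called lower and 0 higher, and their summed level was 2005 to 2259 CPM at 3 µM. Mean levels at 3 µM and in DMSO were 603 and 465 CPM for Epcam and 611 and 462 CPM for Cdh1. Those of Krt8 (491 and 824 CPM) and Krt18 (423 and 589 CPM) were lower at 3 µM, and both genes are also counted among the luminal markers. Of the 9 luminal markers 6 were called lower, and the 5 markers of squamous differentiation were all called higher. Of 7 basal markers 3 were higher and 4 lower, while 4 of 4 adipocyte markers (median log2 fold change −5.85) and 2 of 3 pericyte markers (median −2.56) were lower.

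**Figure D4:**
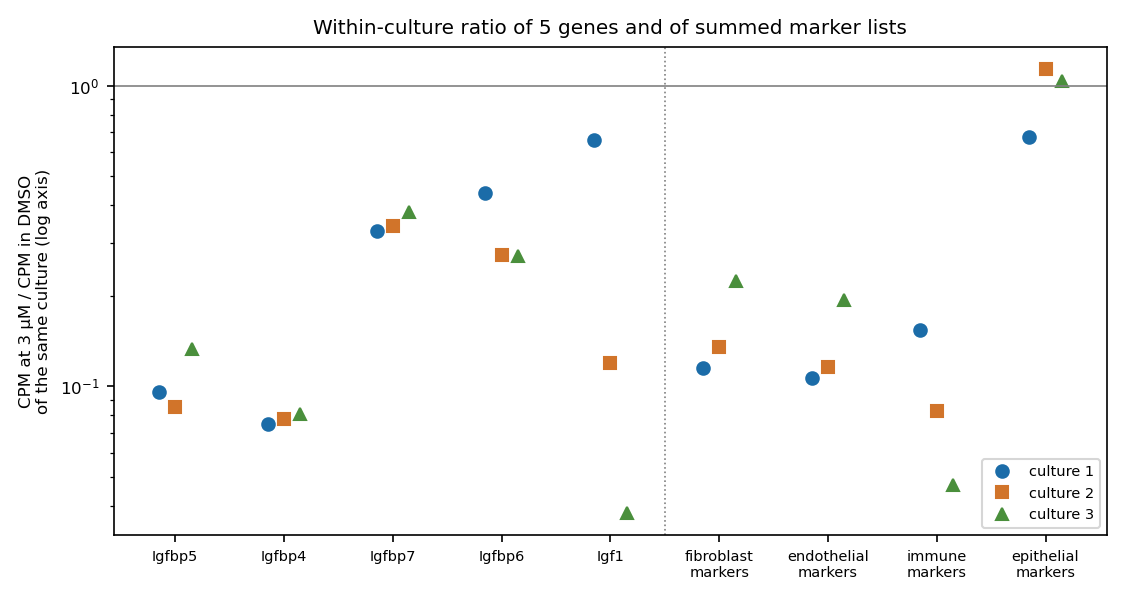
Points give the CPM at 3 µM divided by the CPM in DMSO of the same culture (log axis) for 5 genes and for summed lists of fibroblast, endothelial, immune and epithelial markers, with 1 symbol per culture. The fold decrease of Igfbp4 runs from 12.4 to 13.4 over the 3 cultures, whereas that of Igf1 runs from 1.52 to 26.4.

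The wider IGF pathway was described from a list of 44 other genes, of which 43 were in the table and 40 were tested. At 3 µM, 16 were called lower and 3 higher, at 1.5 µM 9 lower and 1 higher, and at 1 µM 0. DESeq2 also called 0 at 1 µM, where edgeR called 0.242% and DESeq2 3.08% of all genes. At that dose 4 of the 40 had an unadjusted p under 0.05, and the share of all genes at that cut is not given here. The 19 of 40 called at 3 µM compare with 57.5% of all genes, of which 27.7% were lower and 29.9% higher, and the 10 of 40 at 1.5 µM with 27.3%. The median log2 fold change at 3 µM was −0.30. The model with the culture as a block called 27 of the 40 at 3 µM, against 68.9% of all genes. It called 17 at 1.5 µM, against 46.7%, and 2 at 1 µM, against 5.61%, so the pathway list was called about as often as all genes in this model.

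Among ligands and receptors, Igf2, the other IGF ligand, had 1.55, 27.3 and 55.3 CPM in cultures 1, 2 and 3 in DMSO and 0.235, 0.449 and 3.17 CPM at 3 µM. Each culture was lower at 3 µM, but the groups overlapped because culture 1 was low from the start. Its log2 fold change was −4.43 ± 1.73 SE (edgeR adjusted p = 0.0486), a call made in 4 of 12 fits that each left out 1 library, with adjusted p up to 0.137. Levels of Igf2 differed between cultures in the same test as above (edgeR adjusted p = 0.00228). Insr, the insulin receptor, fell from 140 ± 26.6 to 75.1 ± 16.0 CPM (log2 fold change −0.90 ± 0.16 SE, edgeR adjusted p = 0.000987). Igf2r, which clears IGF2 from the cell surface, had 207 ± 25.7 CPM in DMSO and 221 ± 62.8 CPM at 3 µM (log2 fold change 0.10 ± 0.19 SE, edgeR adjusted p = 0.676). Insrr, an orphan relative of both receptors, never exceeded 2 counts per library and was left untested.

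Of the other binding proteins 1 was tested, Igfals, which encodes the acid-labile subunit of the plasma IGF complex, and it fell (log2 fold change −1.51 ± 0.35 SE, edgeR adjusted p = 0.00434). Of the 6 tested proteases of binding proteins and their inhibitors, 1 fell and 1 rose at 3 µM, where 57.5% of all genes were called. Adam12, a metalloprotease that cleaves IGFBP3 and IGFBP5, fell from 361 ± 138 to 26.2 ± 15.8 CPM (log2 fold change −3.78 ± 0.53 SE, edgeR adjusted p = 0.000212). Adam28 was called higher (edgeR adjusted p = 0.0236) on 0 to 7 counts in DMSO libraries and 6 to 15 at 3 µM, and this call was lost without DMSO replicate 1, 3 µM replicate 2 or 3 µM replicate 3.

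Downstream of the receptors, 4 of 6 adaptors fell at 3 µM and 0 rose, where 27.7% of all genes were called lower. Of these, Irs1, the insulin receptor substrate that links the receptors to PI3K, had a log2 fold change of −2.09 ± 0.28 SE (edgeR adjusted p = 0.00017), Gab1 one of −1.24 and Shc1 one of −0.39. Grb14, an adaptor that inhibits the insulin receptor, had 36.7, 39.1 and 35.1 CPM in DMSO and 2.27, 3.14 and 3.45 CPM at 3 µM (log2 fold change −3.64 ± 0.22 SE, edgeR adjusted p = 1.76e-06). Of 14 genes of the PI3K-AKT branch 2 fell and 1 rose, where 27.7% of all genes were called lower and 29.9% higher. The median log2 fold change of the branch was −0.069. The genes that fell were Pik3r1 (log2 fold change −0.95), a regulatory subunit of PI3K, and Pik3ca (−0.28), a catalytic subunit. The riser was Pdpk1, the kinase that activates AKT, with 129 ± 13.8 CPM in DMSO and 159.7 ± 11.5 CPM at 3 µM (log2 fold change 0.31 ± 0.09 SE, edgeR adjusted p = 0.0161), a call lost without DMSO replicates 1 or 3 or 3 µM replicates 1 or 2, each left out alone.

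In the growth hormone and prolactin axis, 5 of 7 genes fell and 0 rose, against the same 27.7% of all genes. These and the named adaptors other than Grb14, the genes of the PI3K-AKT branch that fell, Igfals and Igf2bp3 were chosen for naming after their values were seen. Ghr, the growth hormone receptor, fell from 423 ± 146 to 39.6 ± 2.23 CPM (log2 fold change −3.42 ± 0.28 SE, edgeR adjusted p = 8.78e-06). Prlr, the prolactin receptor, had a log2 fold change of −1.29 ± 0.20 SE (edgeR adjusted p = 0.00042), and it is also one of the luminal markers. Stat5a and Stat5b, transcription factors of both hormones, had log2 fold changes of −0.61 and −0.58, and Socs2, a feedback inhibitor, one of −1.05, called in 3 of 12 fits that each left out 1 library. Of the 3 IGF2 mRNA-binding proteins, which bind and stabilise transcripts, Igf2bp1 rose (edgeR adjusted p = 0.000348), from 0 to 3 counts per library in DMSO to 12 to 33 counts at 3 µM. Igf2bp3 fell (log2 fold change −1.84 ± 0.52 SE, edgeR adjusted p = 0.0123), a call lost without 3 µM replicate 2. This call rests on 7 to 15 counts per library in DMSO and 2 to 3 at 3 µM.

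**Figure D5:**
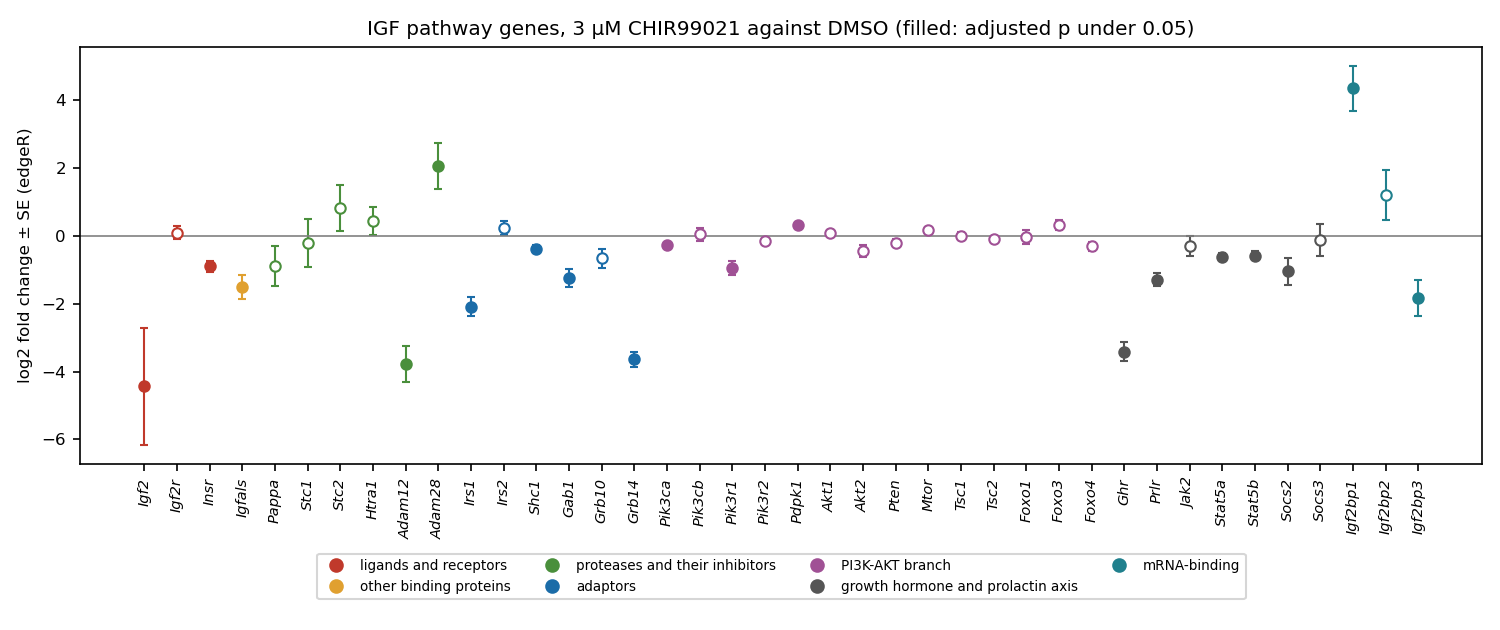
Points show the log2 fold change at 3 µM CHIR99021 against DMSO for the 40 tested pathway genes, coloured by role, with bars for the standard error (edgeR, 3 libraries per group) and filled points for adjusted p under 0.05. Filled points below 0 number 16 and include Igf2 at −4.43, Adam12 at −3.78 and Grb14 at −3.64, and filled points above 0 number 3.

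The genes most like each member over the 12 libraries were found by Pearson's correlation of log2 CPM over 12439 genes with at least 50 counts on average. These libraries share dose, culture and depth, so the values are descriptions. Igfbp5 was closest to Acvr2a (r = 0.993), C130021I20Rik (0.992) and Ppp1r3c (0.991), with 730 genes over 0.9. Igfbp4 was closest to Erlec1 (0.995), Trpv2 (0.994) and Nr2f1 (0.993), with 874 genes over 0.9. Igfbp7 was closest to Dnajc10 (0.980), Rcsd1 and Col4a2 (both 0.977), and Igfbp6 to Srpx (0.978), Mxra8 (0.972) and Fam109b (0.967). Genes over 0.9 numbered 370 for Igfbp7 and 273 for Igfbp6. Igf1 was closest to Ap1m1 and Dock1 (both 0.953) and Siae (0.952), with 29 genes over 0.9. The remaining genes had the fewest close matches: Igfbp3 was closest to Ccdc32 (0.931), with 3 genes over 0.9, Igf1r to Usp42 (0.913), with 2, and Igfbp2 to Rnaset2a (0.885), with 0. Among the members, Igfbp4 was closest to Igfbp7 (r = 0.933) and to Igfbp6 (0.876), and Igfbp5 to Igfbp4 (0.862).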

How the data were processed

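Stranded TruSeq libraries of polyadenylated RNA were sequenced on an Illumina platform, per the labels. Deposited by the authors were raw read counts per Ensembl gene. TopHat2 2.1, Bowtie 1.1.0, HTSeq, DESeq2 and the builds GRCm38 and mm10 are named, with no order, per the submitters' processing notes, and the annotation release is not given in the sources used here. The deposited log2 table equals log2 of the counts per 10 M plus 1 (0 values differed by more than 1e-06) and was not used further. Of the rows, 4 name no gene symbol, and they stayed in the library totals under their Ensembl identifiers.

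Counts were filtered with filterByExpr, scaled by TMM and tested with edgeR 4.0.16 under R 4.3.3 (robust glmQLFit and two-sided glmQLFTest) on a mean per group over all 12 libraries, with Benjamini-Hochberg adjustment. CPM use the TMM-scaled totals. SE is the log2 fold change divided by the square root of F. Wilson intervals at 95% cover counting error only. Merged exon lengths come from GENCODE M21. The tests were tested on simulated data. Library totals of 10.1 to 24.5 M gave each of the 8 genes at least 30 counts per library.

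The culture number is an animal, so it pairs libraries. Deviations from group means correlated from 0.177 to 0.840 (median 0.505) in 18 same-number pairs. In 36 pairs of different number and group they ran from −0.728 to 0.288 (median −0.212), so the ranges overlapped. Deviations from a group's mean cancel out, which by itself lowers the values of different-number pairs. Alternatives were the culture block, DESeq2 1.42.0, other scalings, no filter, the 2 groups alone and leaving out libraries or cultures. Libraries of 1 group differed by at least 12.8 in chi-square per degree of freedom, so none was a copy. The members and lists were chosen with earlier results of these data known. Pathway genes were named where both edgeR models called them at 3 µM, as the 3 largest rises and falls, and ligands and receptors always. Of the planned pathway list, 1 gene is not reported here.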

Additional observations from a re-analysis of the deposited data

How the results depend on the processing

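Of 840 refitted fold changes of the 8 genes under alternative settings, 755 kept their direction and side of the threshold, 39 gained a call, 20 lost one and 26 changed sign, all of the last among genes and comparisons without a call. The replicate block gained 11 calls and lost 0, which gave 1 gene called at 1 µM, 4 from 1 to 1.5 µM and 4 from 1.5 to 3 µM in place of 0, 0 and 1. The block called 5.61, 21.9 and 46.7% of all genes in these comparisons. DESeq2 called 2 of the 8 genes from 1 to 1.5 µM, where it called 10.7% of all genes. From 1.5 to 3 µM it also called 2, where it called 35.1% of all genes. The 2 groups alone called 1 from 1 to 1.5 µM, and scaling by library size alone 2 from 1.5 to 3 µM, with shares of all genes not given here. That scaling also turned Igfbp6 at 1 µM to 0.0019 and Igf1r to 0.057 at 1 µM, −0.088 at 3 µM and −0.20 from 1.5 to 3 µM on the log2 scale, and took Igfbp5 at 1.5 µM to an edgeR adjusted p of 0.0533. Without the 10 most counted other genes the 8 genes held 1.81% of counts at 1 µM in place of 1.70%. Leaving out 1 library or culture gave 0 to 0 genes called at 1 µM, 0 to 3 at 1.5 µM, 3 to 6 at 3 µM, 0 to 0 from 1 to 1.5 µM and 1 to 3 from 1.5 to 3 µM. How many of all genes these fits called is not given here, so shifts in calling as a whole cannot be set apart. The 8 genes' share of counts then ran from 1.77 to 2.08% in DMSO, 1.64 to 1.81% at 1 µM, 1.04 to 1.17% at 1.5 µM and 0.173 to 0.240% at 3 µM. Of genes without a call, the log2 fold change then changed sign for Igfbp6 (−0.63 to 0.44), Igfbp7 (−0.44 to 0.0038) and Igf1r (−0.10 to 0.037) at 1 µM, Igfbp2 (−1.31 to 0.83) and Igf1r (−0.027 to 0.094) at 1.5 µM, Igf1r (−0.053 to 0.19) at 3 µM, Igfbp2 (−1.84 to 0.26), Igf1 (−1.42 to 0.086) and Igf1r (−0.025 to 0.16) from 1 to 1.5 µM, and Igf1r (−0.069 to 0.16) from 1.5 to 3 µM. The cause of these changes was not tested. With 3 libraries per group and no block, the log2 fold change of Igfbp2 at 3 µM carried an SE of 0.84.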
